A study of Mus musculus with 9 samples.

Results

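The interferon-stimulated antiviral genes and interferon-inducible GTPases were examined in mouse CD8+ T cells meant to lack ketolysis, the use of ketone bodies as fuel. The 60 genes were set as a list of names, by a rule that uses no measured value but with earlier results of these data known, and all 60 were found among the 55471 gene identifiers that were counted. Of these, 46 are antiviral genes of the kind that type I interferon induces, and 14 are GTPases, either guanylate-binding proteins (Gbp) or immunity-related GTPases (Igtp, Irgm1, Irgm2, Iigp1, Tgtp1 and Tgtp2). RNA was sequenced from 9 libraries of OT-I cells, whose transgenic receptor recognises an ovalbumin peptide. The control group (n = 4, labelled Bdh1-WT;shCtrl) had an intact Bdh1 gene and a short hairpin RNA against firefly luciferase. The DKO group (n = 5, labelled Bdh1-KO;shOxct1) was a Bdh1 knockout with a hairpin against Oxct1. Cells of both groups were activated in culture through CD3 and CD28 with IL-2, transduced, sorted on the Ametrine reporter and transferred into C57BL/6 (CD45.1) mice. LmOVA, Listeria monocytogenes engineered to make ovalbumin, was given to the mice 1 day later, and the CD45.2 Ametrine+ cells were sorted from the spleen on day 7 of infection. The hosts themselves were of neither group. The age of the mice, and whether replicates came from separate donors or hosts, are not stated in the labels, so p-values measure the spread between these libraries.

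Interferons bind receptors that activate the JAK kinases, and these phosphorylate transcription factors. Type I interferon assembles a complex with STAT2 and IRF9 that binds the interferon-stimulated response element (ISRE) in the promoters of antiviral genes. Interferon gamma acts through another element, the gamma-activated site (GAS). The antiviral genes encode RNA sensors, RNA-degrading and translation-blocking proteins, and ubiquitin-like modifiers, whereas the GTPases attack the vacuoles of intracellular microbes. T cells express many of these genes at rest and raise them early in infection.

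The libraries held 45205993 to 59853080 counts in genes. Oxct1 was at 5.16 ± 0.369 CPM (counts scaled to the library's total) in DKO and 63.1 ± 5.73 CPM in control, and Bdh1 at 10.6 ± 1.24 and 30.5 ± 4.16 CPM (SD, n = 5 and 4), so both targeted genes were lower in DKO, as labelled. All 8 CD8 T cell markers were above 1 CPM, with Cd8a at 663 to 797 CPM. Of these, Cd8b1 fell in DKO, at means of 2245 CPM in control, against 1701 CPM in DKO (log2 fold change -0.40, edgeR adjusted p 0.0428). That call was lost when any library other than control replicate 1 was omitted (edgeR adjusted p up to 0.127). DESeq2 and limma-voom also called Cd8b1 (adjusted p 0.00253 and 0.0116). Cd3e, Cd3d and Cd3g were lower at an unadjusted p under 0.05 in edgeR. The summed level of the 8 was 9356 to 12203 CPM in control, against 9120 to 10134 CPM in DKO. Cd4 did not exceed 0.662 CPM in any library, and Foxp3 was at means of 0.137 and 0.212 CPM. Of the other CD4 T cell markers, Cd40lg was at 20.4 CPM in control, against 29.4 CPM in DKO, and Zbtb7b at 14.6 against 11.8 CPM. Neither passed the threshold in edgeR (adjusted p 0.135 and 0.247). DESeq2 called Cd40lg (adjusted p 0.0362) and limma-voom called Zbtb7b (adjusted p 0.0414). Control replicates 1 and 3 stood apart from the other 7 libraries on the first and second principal components. Control replicate 1 also had the most unmapped reads, 16.67%, against at most 12.31% in the other libraries. Its share of reads in genes was 67%, against at least 71.79% in the others. The part of this in the results was not tested. Marker lists of 5 other kinds of cell were summed. The B cell sum was 187 to 271 CPM in control, against 195 to 215 CPM in DKO. Most of it came from Ighm (mean 209 CPM in control, against 188 CPM in DKO). The CD4 T cell sum was 30.7 to 39.3 CPM in control, against 34.6 to 46.6 CPM in DKO. The erythroid and platelet sum reached 36.1 CPM in control, against 54.0 CPM in DKO. For each of these lists the groups overlapped. The plasmacytoid dendritic cell sum, of a cell type that makes type I interferon, was 4.58 to 6.17 CPM in control and 5.38 to 7.59 CPM in DKO libraries. Most of it came from Ccr9 (mean 2.06 CPM in control, against 2.53 CPM in DKO) and Tcf4 (3.07 against 3.65 CPM). Siglech and Klk1 had 0 counts in control, against 2 and 1 in DKO. Spib had 0 counts in control, against a DKO mean of 0.253 CPM. Whether such cells were present was not tested. The myeloid sum was 166 to 201 CPM in control, against 117 to 127 CPM in DKO (exact permutation test, two-sided, p = 0.0159, the smallest that 126 relabellings allow), with no overlap. Over the 5 lists this becomes an adjusted p of 0.0794, so 1 list that separates the groups alone could not pass. Of its 12 genes, 8 exceeded 1 CPM on average. Ctss, at means of 81.1 CPM in control, against 51.2 CPM in DKO, made up the largest share and fell by edgeR's test (adjusted p 0.00734), as did Cd68 (adjusted p 0.0138). Itgam, at means of 58.9 CPM in control, against 38.1 CPM in DKO, was lower at an unadjusted p of 0.0105 in edgeR (adjusted p 0.148). DESeq2 and limma-voom called it (adjusted p 0.0447 and 0.00509). Tyrobp, at 3.18 against 2.40 CPM, was lower at an unadjusted p of 0.0494 in edgeR. Lyz2 went the other way, at 2.43 CPM in control, against 5.84 CPM in DKO (adjusted p 0.206 in edgeR and 0.0476 in DESeq2). Csf1r, Fcer1g, Cd14, Adgre1 and Mpeg1 had edgeR intervals across 0 for the log2 fold change. S100a8 and S100a9, at 0 to 0.381 CPM, held too few counts to be tested. The part of these marker differences in the results on the members was not tested. In bulk RNA, fewer expressing cells and less RNA per cell cannot be told apart.

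The members spanned a wide range of levels. Per kilobase of annotated exon, Slfn2, a schlafen that keeps T cells quiescent, led in control with 587 CPM per kb. Phf11b (137), Ifi27l2a (132) and Slfn1 (108 CPM per kb) were next among the antiviral genes, and Igtp (72.1), Gbp7 (57.8) and Gbp2 (43.4 CPM per kb) led the GTPases. Isg15, the ubiquitin-like modifier often used as an interferon marker, was only at 10.9 CPM per kb in control. Ifit1, which binds foreign RNA ends, was at 7.72 CPM per kb, and Oas2, Mx2 and Oasl2 were at 0.0967, 0.0972 and 0.150 CPM per kb. Oas1g had 1 count in each group, and Ifi44 had 173 counts in control and 40 in DKO. These last 2 genes did not pass the filter on low counts, which left 58 members tested.

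**Figure D1:**
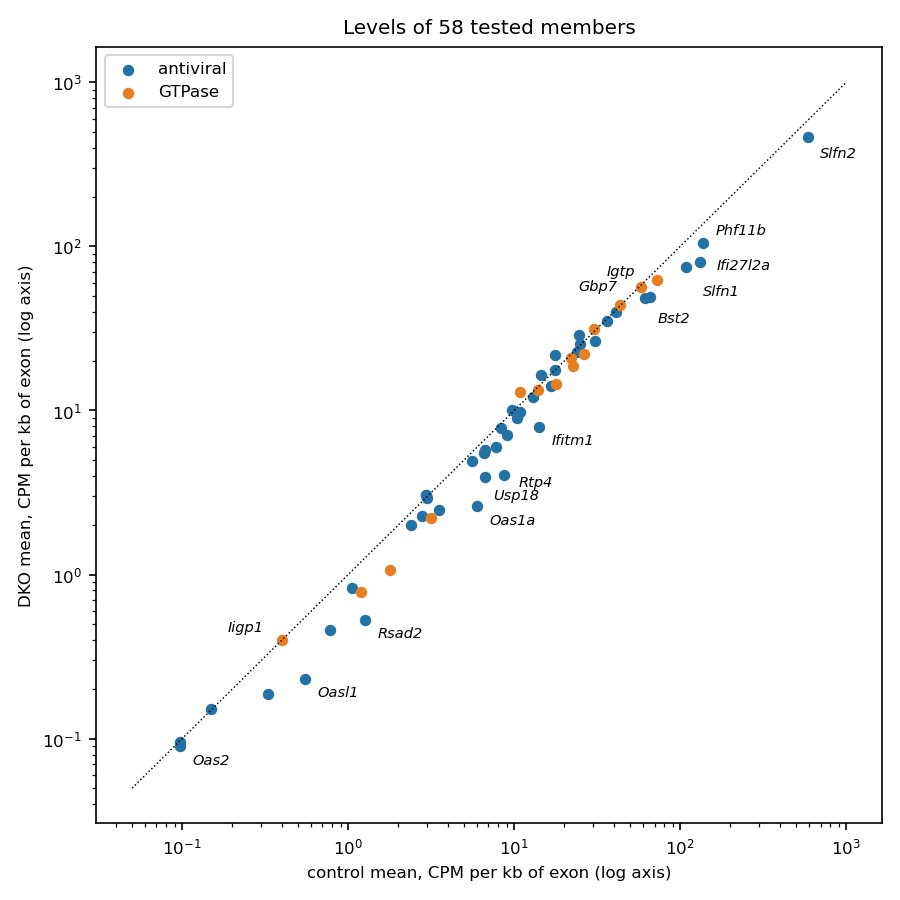
Mean level of the 58 tested members in DKO (vertical, n = 5) against control (horizontal, n = 4), in CPM per kilobase of annotated exon on log axes, with the dotted line marking equal levels. Members run from Oas2 at 0.0967 to Slfn2 at 587 CPM per kb in control, and Oas1a, Rsad2, Usp18 and Rtp4 lie below the line.

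The question was whether effector cells meant to lack ketone use express these genes at other levels. Rsad2, Oas1a, Rtp4 and Usp18 fell in DKO, all antiviral genes, and none of the 14 GTPases passed the threshold. Of 58 tested members 4 (6.90%) were called by edgeR's quasi-likelihood test at an adjusted p under 0.05, all lower, where 2.83% of the 14918 genes passed in either direction and 1.51% were called lower. Log2 fold changes of DKO against control were negative for 46 of 58 members, with a median of -0.22 over the 44 tested antiviral genes and -0.14 over the 14 GTPases, and -0.01 over all genes. A lower value at an unadjusted p under 0.05 was found for 22 members (37.9%), against 8.25% of all genes, and no member was higher at that level. These were 15 of the 44 antiviral genes (34.1%) and 7 of the 14 GTPases (50.0%). Whether antiviral genes and GTPases differed was not tested. For 11 members (19.0%) every DKO library was below every control library, against 4.09% of all genes, and for no member were all DKO libraries above. The members share the same 9 libraries, so these shares are descriptions. DESeq2 called 14 members and limma-voom 13, where they called 7.10% and 6.68% of all genes. Without control replicate 1 edgeR's test called 8 members and 4.93% of all genes, and without control replicate 3 it called 2, Oas1a and Usp18, and 2.25% of all genes. It called 1, Oas1a, in 4 further cases, when control replicate 4 or DKO replicate 1, 3 or 5 was omitted, where 1.22 to 1.54% of all genes were called. The GTPase median was -0.28, the same as that of the antiviral genes, without DKO replicate 4.

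**Figure D2:**
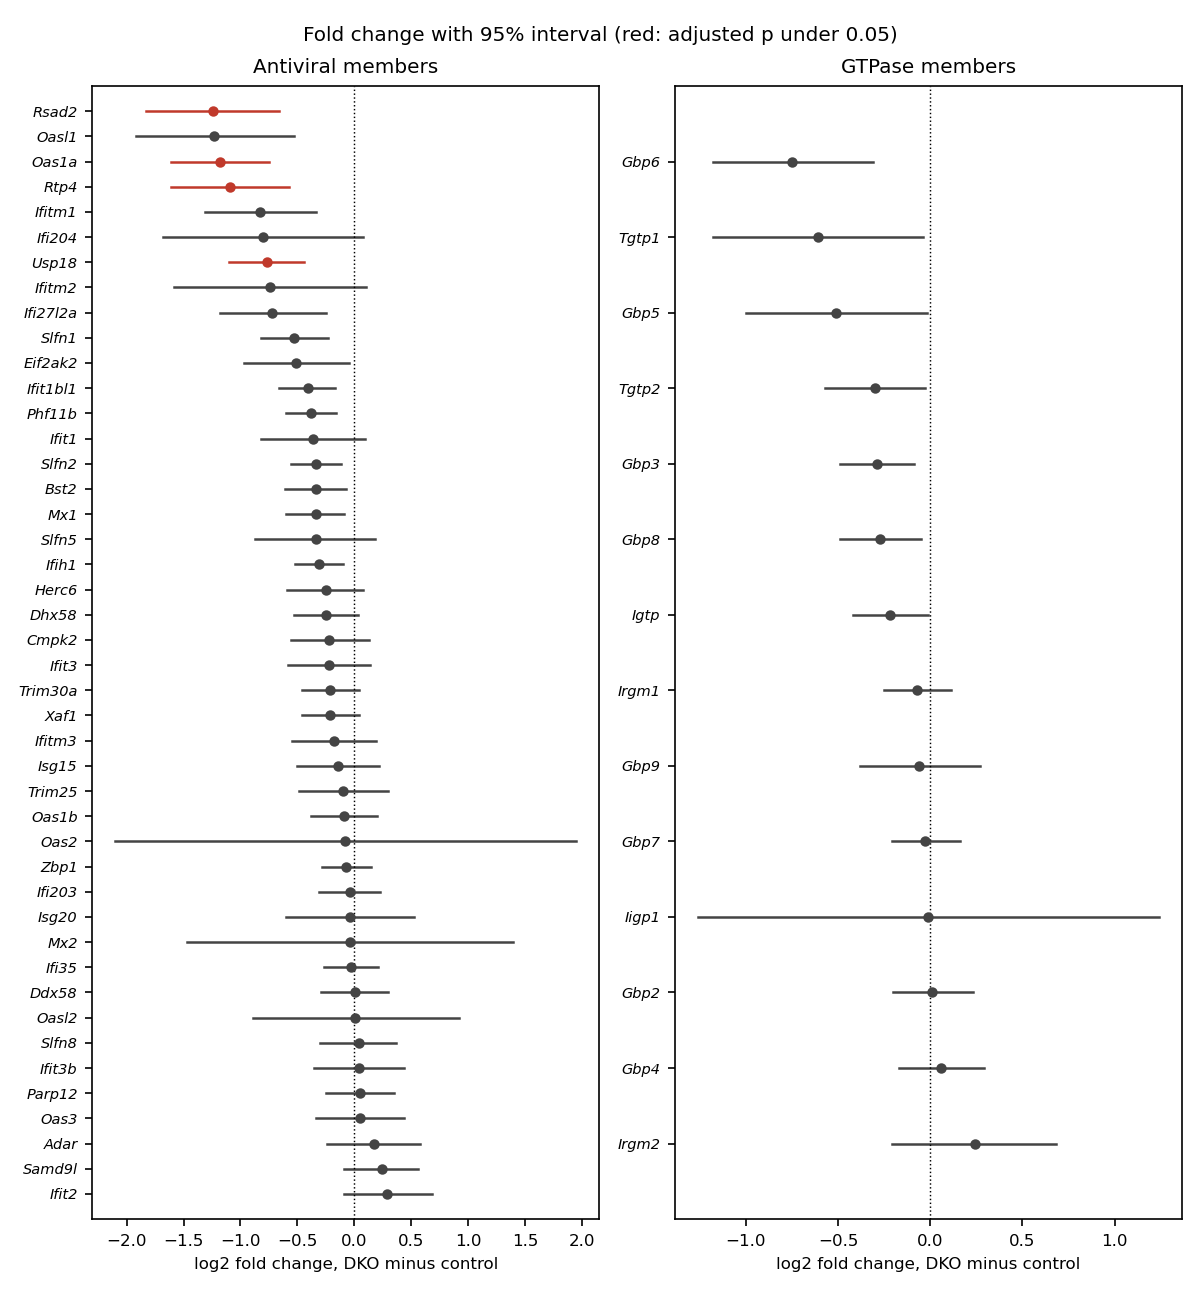
Log2 fold change (DKO minus control, horizontal) of each tested antiviral member (left, 44 genes) and GTPase (right, 14 genes), with its 95% interval from edgeR. The 4 members in red passed an adjusted p of 0.05, and no interval lies wholly above 0.

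Oas1a encodes a synthetase that senses double-stranded RNA and makes the messenger that activates RNase L. It was at 12.0, 8.28, 12.4 and 11.9 CPM in control replicates 1 to 4, and at 5.22, 5.50, 3.03, 5.90 and 4.97 CPM in DKO replicates 1 to 5. The highest DKO library lay below the lowest control library, replicate 2. The log2 fold change was -1.18 (SE 0.20, 95% interval -1.61 to -0.75, edgeR adjusted p 0.0108), or 44.1% of control. Oas1a (ENSMUSG00000052776.10) lies on the minus strand of chromosome 5, 120896256 to 120907521 in GRCm38, and was called without each library in turn (edgeR adjusted p 0.0113 to 0.0407). Of its transcript words of 50 bases, 57.6% also occur in other genes, chiefly Oas1g, so reads from shared stretches may be missing from its count.

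Usp18 encodes the protease that removes ISG15 and also damps the type I interferon receptor. It was at 18.4, 18, 19.2 and 19.0 CPM in the control libraries and at 8.81, 14.6, 9.26, 12.1 and 9.79 CPM in the DKO libraries. Control libraries were nearly level, and DKO replicate 2 came closest to them without reaching them. Its log2 fold change was -0.77 (SE 0.15, interval -1.10 to -0.44, edgeR adjusted p 0.0218). The call was lost without control replicate 4 or DKO replicates 1, 3 or 5, at an adjusted p of at most 0.0648 in edgeR. The strand columns summed to 1.2 times its unstranded count, and the call held with that sum (edgeR adjusted p 0.0201). Usp18 lies on chromosome 6 (plus strand), 121245906 to 121270917.

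Rsad2 encodes viperin, an enzyme that makes a chain-terminating nucleotide. It was at 5.09, 4.26, 7.65 and 4.92 CPM in control, against 1.52, 2.44, 2.63, 3.41 and 1.54 CPM in DKO. The groups did not overlap, and control replicate 3 was the highest library. Rsad2 lies on the minus strand of chromosome 12, 26442746 to 26456452. Its log2 fold change was -1.24 (SE 0.27, interval -1.83 to -0.66, edgeR adjusted p 0.0343). The call was lost when control replicate 3 or 4, or any DKO replicate other than 4, was omitted, where edgeR's adjusted p reached 0.0819. Cmpk2, the neighbour of Rsad2 on chromosome 12 and a mitochondrial nucleotide kinase, was at 25.8 to 30.0 CPM in control, against 17.5 to 31.4 CPM in DKO. Its log2 fold change was -0.22 (interval -0.56 to 0.13, edgeR adjusted p 0.550), and the groups overlapped.

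Rtp4, which encodes a chaperone-like protein that dampens the interferon response, was at 26.4, 13.9, 19.1 and 14.6 CPM in control, against 8.44, 11.3, 6.74, 11.0 and 5.88 CPM in DKO. No libraries overlapped, but control replicate 1 was well above the other control libraries. Rtp4 lies on the plus strand of chromosome 16, 23520291 to 23614222, and shares 13.9% of its exon length with Gm45338 on the same strand. Its log2 fold change was -1.09 (SE 0.24, interval -1.61 to -0.57, edgeR adjusted p 0.0352). Without control replicate 1 it was -0.88 and still called (edgeR adjusted p 0.0371), and it was not called when control replicate 3 or 4, or DKO replicate 1, 3 or 5, was omitted (up to 0.0940). With both control libraries that stood apart left out, Oas1a and Usp18 were called at adjusted p of 0.0401 and 0.0484, while Rsad2 and Rtp4 were not (edgeR, 0.0982 and 0.123), and 3.08% of all genes were called.

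**Figure D3:**
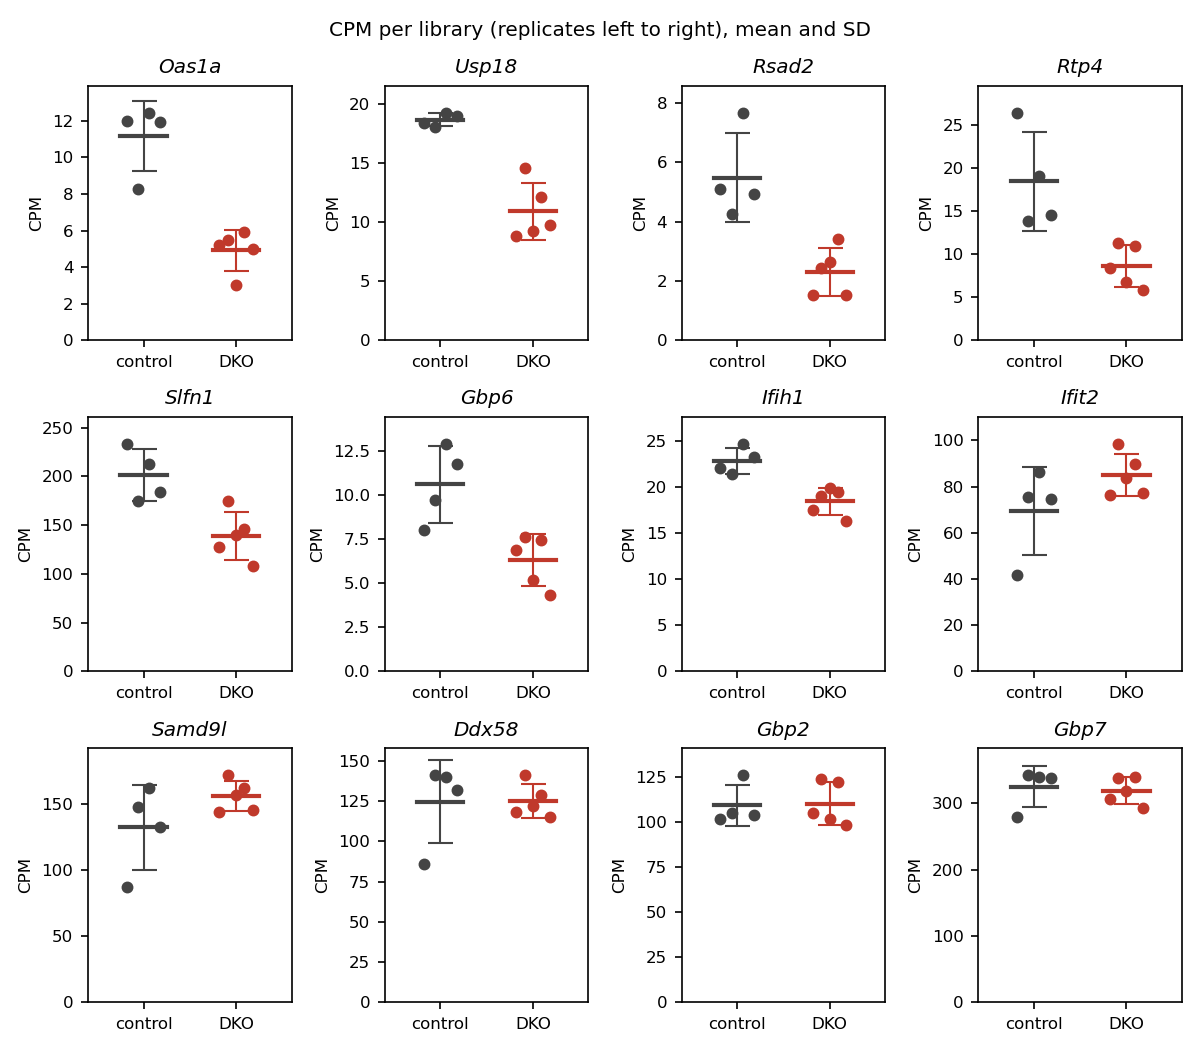
CPM (vertical, from 0) of 12 members in each library, 4 control (grey) and 5 DKO (red), replicates from left to right, with the mean (bar) and SD (whiskers). Oas1a, Usp18, Rsad2, Rtp4, Gbp6 and Ifih1 do not overlap between the groups, whereas Slfn1, Ifit2, Samd9l, Ddx58, Gbp2 and Gbp7 do. Control replicate 1 is the lowest control library for Ifit2, Samd9l, Ddx58, Gbp2, Gbp6 and Gbp7.

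Among the other genes of the OAS family, Oasl1, which restrains translation of Irf7, was at 0.998 to 2.06 CPM in control, against 0.316 to 0.863 CPM in DKO, with no overlap. Its log2 fold change of -1.23 (interval -1.92 to -0.53) missed the threshold in edgeR (adjusted p 0.0689) but not in DESeq2 or limma-voom (adjusted p 0.00837 and 0.0453), and its lowest library held 16 counts. Oas3, the synthetase for long RNA, was at 68.8 ± 18.6 CPM in control, against 71.1 ± 8.99 CPM in DKO (SD, n = 4 and 5), with a log2 fold change of 0.05 (interval -0.34 to 0.44). Oas1b, listed as a polymorphic pseudogene and not as protein-coding in the annotation used, was at 16.5 ± 2.83 and 15.5 ± 1.67 CPM. Oas1a, Oas1b and Oas3 lie in 1 cluster on chromosome 5, and with Oasl1 their log2 fold changes ran from -1.23 to 0.05. Oas2 and Oasl2, at means under 1 CPM, had intervals of -2.10 to 1.95 and -0.89 to 0.92, so changes of that size could not be seen.

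The IFIT genes, which bind viral RNA and block its translation, form a cluster on chromosome 19, and none of the 5 passed the threshold in edgeR. Ifit2 was at 41.8, 75.6, 86.1 and 74.4 CPM in control, against 76.3, 98.3, 83.9, 89.6 and 77.2 CPM in DKO, a log2 fold change of 0.29 (interval -0.09 to 0.68). Control replicate 1 was far below the rest, and the other control libraries overlapped the DKO libraries. Ifit1bl1 was at 149 ± 17.9 and 112 ± 13.7 CPM, with a log2 fold change of -0.41 (edgeR adjusted p 0.0787). It was called by DESeq2 (adjusted p 0.0137) and by edgeR without control replicate 1 (adjusted p 0.0441). Ifit1 and Ifit3 had log2 fold changes of -0.36 and -0.22, and Ifit3b of 0.04, all with intervals across 0. Of the transcript words of Ifit3, 51.2% also occur elsewhere, chiefly in Ifit3b, so these 2 values are uncertain. Isg15 was at 8.21 ± 1.42 CPM in control, against 7.43 ± 1.27 CPM in DKO (interval of the log2 fold change -0.50 to 0.22).

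The RNA sensors and the RNA-binding enzymes beside them did not pass the threshold in edgeR, while DESeq2 called Ifih1 (adjusted p 0.0201) and limma-voom called Eif2ak2 (adjusted p 0.0460). Ifih1, which encodes MDA5, was at 22.1, 21.5, 24.7 and 23.3 CPM in control, against 17.6, 19.1, 19.9, 19.5 and 16.4 CPM in DKO. All DKO libraries lay below all control libraries, at a log2 fold change of -0.31 (interval -0.52 to -0.10, edgeR adjusted p 0.124). Ddx58, which encodes RIG-I, was at 125 ± 26.0 and 125 ± 10.3 CPM, with an interval of -0.29 to 0.30. Dhx58, which encodes the regulator LGP2, and Zbp1, a sensor of Z-form nucleic acid, had log2 fold changes of -0.25 and -0.07, with intervals across 0. Eif2ak2, the kinase PKR that stops translation, had a log2 fold change of -0.51 (interval -0.97 to -0.05, edgeR adjusted p 0.266). Trim25, the ubiquitin ligase that assists RIG-I, had one of -0.10, and Adar, which edits double-stranded RNA, one of 0.17 with an interval of -0.24 to 0.58. Adar was at 65.3 CPM in control replicate 1 and 130.1 to 139 CPM in the other control libraries.

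None of Ifitm1, Ifitm2, Ifitm3, Bst2, Mx1 and Mx2 passed the threshold in edgeR. Log2 fold changes were negative for these 6, as for 79.3% of all tested members, and that of Mx2 was only -0.04. Ifitm1, of a family that blocks membrane fusion, was at 16.6, 14.2, 11.5 and 19.6 CPM in control, against 8.16, 11.4, 7.48, 5.41 and 11.1 CPM in DKO. The ranges just failed to meet, and the log2 fold change of -0.83 (interval -1.31 to -0.34) missed the threshold (edgeR adjusted p 0.0799), though DESeq2 and limma-voom called it (adjusted p 0.00752 and 0.0226). Ifitm2, at means of 0.507 and 0.303 CPM, and Ifitm3, at 3.77 and 3.32 CPM, had intervals across 0. Bst2, tetherin, which holds budding virions at the cell surface, was at 55.6 ± 8.30 and 43.9 ± 5.79 CPM (log2 fold change -0.34, edgeR adjusted p 0.195). Mx1, a dynamin-like GTPase that traps viral nucleoproteins, was at 34.3 ± 2.52 and 27.0 ± 4.08 CPM (-0.34, edgeR adjusted p 0.163), and limma-voom called it (adjusted p 0.0281). Mx2, also listed as a polymorphic pseudogene, was at 0.351 and 0.346 CPM and had an interval of -1.47 to 1.39.

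The schlafen genes restrain growth and virus replication. Slfn1 was at 233, 175, 213 and 184 CPM in control, against 128, 175, 139.6, 146 and 108 CPM in DKO. DKO replicate 2 met the lowest control library, and the log2 fold change was -0.53 (interval -0.82 to -0.23, edgeR adjusted p 0.0656). Slfn2 did not overlap between the groups, with 893 to 1191 CPM in control, against 689.8 to 869 CPM in DKO, a log2 fold change of -0.34 (edgeR adjusted p 0.113). Slfn5 and Slfn8 had log2 fold changes of -0.34 and 0.04 with intervals across 0, so edgeR called no gene of the family. DESeq2 and limma-voom each called Slfn1 (adjusted p 0.00715 and 0.0431) and Slfn2 (0.0347 and 0.0360). Phf11b, at 142 to 198 CPM in control, against 116 to 136 CPM in DKO, did not overlap either, at -0.38 (edgeR adjusted p 0.0757), and DESeq2 and limma-voom called it (adjusted p 0.0105 and 0.0312). Of its transcript words, 47% also occur in other genes, chiefly Phf11d.

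The remaining antiviral members did not pass the threshold in edgeR, while DESeq2 called Ifi27l2a (adjusted p 0.0186). Ifi27l2a was at 61.1 ± 21.3 CPM in control, against 37.2 ± 8.13 CPM in DKO, with 91.2 CPM in control replicate 1. Its log2 fold change was -0.72 (edgeR adjusted p 0.111), and -0.47 without that library (edgeR adjusted p 0.122). Samd9l, a restriction factor that blocks translation, was at 133 ± 32.4 and 156 ± 11.4 CPM (0.24, interval -0.09 to 0.56). The DNA-binding genes Ifi203 and Ifi204 had log2 fold changes of -0.04 and -0.80, the latter at 1.18 and 0.669 CPM with an interval of -1.68 to 0.08. Trim30a, Xaf1, Herc6, Parp12, Ifi35 and Isg20 had log2 fold changes from -0.25 (Herc6) to 0.05 (Parp12), all with intervals across 0.

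Gbp proteins coat and break open the vacuoles of intracellular microbes. None of the 8 passed the threshold in edgeR's test, and 4 were lower at an unadjusted p under 0.05 (50.0%, against 8.25% of all genes). DESeq2 and limma-voom each called Gbp3 and Gbp6, where they called 7.10% and 6.68% of all genes. Gbp6 was at 8.02, 9.74, 12.9 and 11.8 CPM in control, against 6.90, 7.64, 5.21, 7.48 and 4.36 CPM in DKO. The groups did not overlap, and the log2 fold change was -0.75 (interval -1.18 to -0.31, edgeR adjusted p 0.0759, and 0.0240 without control replicate 1). Gbp3 did not overlap either, at 71.1 to 80.1 and 54.9 to 71.0 CPM, though DKO replicate 4 all but met the control libraries (-0.29, edgeR adjusted p 0.132). Gbp5, an activator of the NLRP3 inflammasome, had a log2 fold change of -0.51 and Gbp8 of -0.27, at edgeR adjusted p of 0.295 and 0.217. The 3 most abundant Gbp genes by CPM were close to level. Gbp7 was at 325 ± 30.5 and 319 ± 19.6 CPM (interval -0.21 to 0.16), Gbp4 at 226 ± 31.9 and 235 ± 17.8 CPM (-0.17 to 0.29), and Gbp2 at 109 ± 11.2 and 110.2 ± 11.9 CPM (-0.20 to 0.23). Gbp9 had a log2 fold change of -0.06. Of the transcript words of Gbp6, 70.7% also occur in other genes, among them Gbp10, so its level is uncertain.

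Immunity-related GTPases either guard host membranes (Igtp, Irgm1 and Irgm2) or load onto microbial vacuoles (Iigp1, Tgtp1 and Tgtp2). None of the 6 passed the threshold in edgeR. Igtp, Tgtp1 and Tgtp2 were lower at an unadjusted p under 0.05 (50.0% of the 6, against 8.25% of all genes). Igtp was at 160.4, 134, 143 and 145 CPM in control, against 131, 134, 112, 139 and 110.0 CPM in DKO, so the groups overlapped (log2 fold change -0.22, edgeR adjusted p 0.286). Tgtp2 was at 52.5 ± 3.34 and 42.6 ± 7.26 CPM (-0.30) and Tgtp1 at 3.83 ± 0.908 and 2.50 ± 0.813 CPM (-0.61), at edgeR adjusted p of 0.269 and 0.276. These 2 genes share 81.2% or more of their transcript words with others, mainly with each other, so reads may be lost or split between them. Irgm1 was at 128 ± 4.20 and 122 ± 11.5 CPM (interval -0.25 to 0.11) and Irgm2 at 40.3 ± 12.3 and 47.5 ± 8.0 CPM (-0.21 to 0.68). Iigp1 was at 6.68 CPM in DKO replicate 4 and at 0.719 to 2.87 CPM in the other 8 libraries, and its interval of -1.26 to 1.24 leaves its change unresolved.

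The promoters were searched for the letters of the sites that interferon uses. RefSeq windows on GRCm38.p6, from 250 bases before to 50 after the start site, were at hand for 45 of the 60 members (55 windows). The ISRE core, GAAA repeated after any 2 bases and read on either strand, was in 58.2% of member windows and 3.44% of all 32851 windows, and the GAS core TTCNNNGAA, which reads the same on both strands, in 25.5% and 8.30%. By group, the ISRE core was in 23 of 45 antiviral and 9 of 10 GTPase windows, and the GAS core in 8 and 6. Members with and without the ISRE core had median log2 fold changes of -0.26 (28 tested) and -0.10 (15), and with and without the GAS core -0.20 (14) and -0.22 (29). The next sequences are the 160 bases before the start site, on the gene's own strand, with both cores in capitals (in Rsad2 the ISRE core is on the other strand). Oas1a and Rsad2 are the called members with a window, Isg15 holds ISRE cores and was not called, and Tgtp2, Igtp and Irgm2 show 1 shared arrangement of the sites.
Oas1a (chr5:120907526-120907685, minus strand): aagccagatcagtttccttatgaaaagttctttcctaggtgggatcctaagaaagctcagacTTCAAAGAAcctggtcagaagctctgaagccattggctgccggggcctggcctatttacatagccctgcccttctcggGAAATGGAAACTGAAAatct
Rsad2 (chr12:26456453-26456612, minus strand): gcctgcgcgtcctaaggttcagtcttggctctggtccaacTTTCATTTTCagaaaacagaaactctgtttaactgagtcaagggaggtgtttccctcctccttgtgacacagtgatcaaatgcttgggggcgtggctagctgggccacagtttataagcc
Isg15 (chr4:156200819-156200978, minus strand): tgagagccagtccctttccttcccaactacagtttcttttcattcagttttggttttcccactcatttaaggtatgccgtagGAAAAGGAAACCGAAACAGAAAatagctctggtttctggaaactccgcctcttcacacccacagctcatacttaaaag
Tgtp2 (chr11:49064213-49064372, minus strand): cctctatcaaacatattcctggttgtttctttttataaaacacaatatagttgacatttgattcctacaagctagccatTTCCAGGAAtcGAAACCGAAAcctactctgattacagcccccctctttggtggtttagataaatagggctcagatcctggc
Igtp (chr11:58199396-58199555, plus strand): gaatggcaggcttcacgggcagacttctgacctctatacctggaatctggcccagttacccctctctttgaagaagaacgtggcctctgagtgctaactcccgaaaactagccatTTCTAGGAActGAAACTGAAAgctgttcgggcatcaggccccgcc
Irgm2 (chr11:58214817-58214976, plus strand): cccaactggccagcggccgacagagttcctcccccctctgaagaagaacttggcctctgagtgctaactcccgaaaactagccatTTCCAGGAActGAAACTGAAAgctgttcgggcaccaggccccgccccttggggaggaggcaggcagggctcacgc
In Oas1a and Isg15 the matches overlap, so the capitals run on past 1 core. In Tgtp2, Igtp and Irgm2 a GAS core is followed after 2 bases by an ISRE core. That arrangement was looked for, on either strand, after it was seen in these windows. It was in 5 of all 32851 windows, those of Tgtp1, Tgtp2, Igtp, Irgm2 and Gm12185, a gene of chromosome 11 that shares transcript words with both Tgtp genes. The 4 members with it had log2 fold changes of -0.61, -0.30, -0.22 and 0.24, none of them called. A match is a run of letters, not a measured site.

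Within a group, many members had the same libraries at the ends of their range. Of the 5 DKO libraries, replicate 2 was the highest for 42 of 58 members (72.4%), against 21.6% of all tested genes, and replicate 5 the lowest for 32 (55.2%), against 22.5%. The median member lay 0.24 above its DKO mean on the log2 scale in replicate 2 and 0.17 below it (-0.17) in replicate 5, while the median of all genes lay at 0.00 in both. In control, replicate 3 was the highest library for 30 members (51.7%, against 25.8% of all genes) and replicate 2 the lowest for 22 (37.9%, against 15.8%). The GTPases showed the same libraries at the ends as the antiviral genes in DKO: replicate 2 was highest for 10 of 14 and replicate 5 lowest for 11 of 14. For the antiviral genes these were 32 and 21 of 44.

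**Figure D4:**
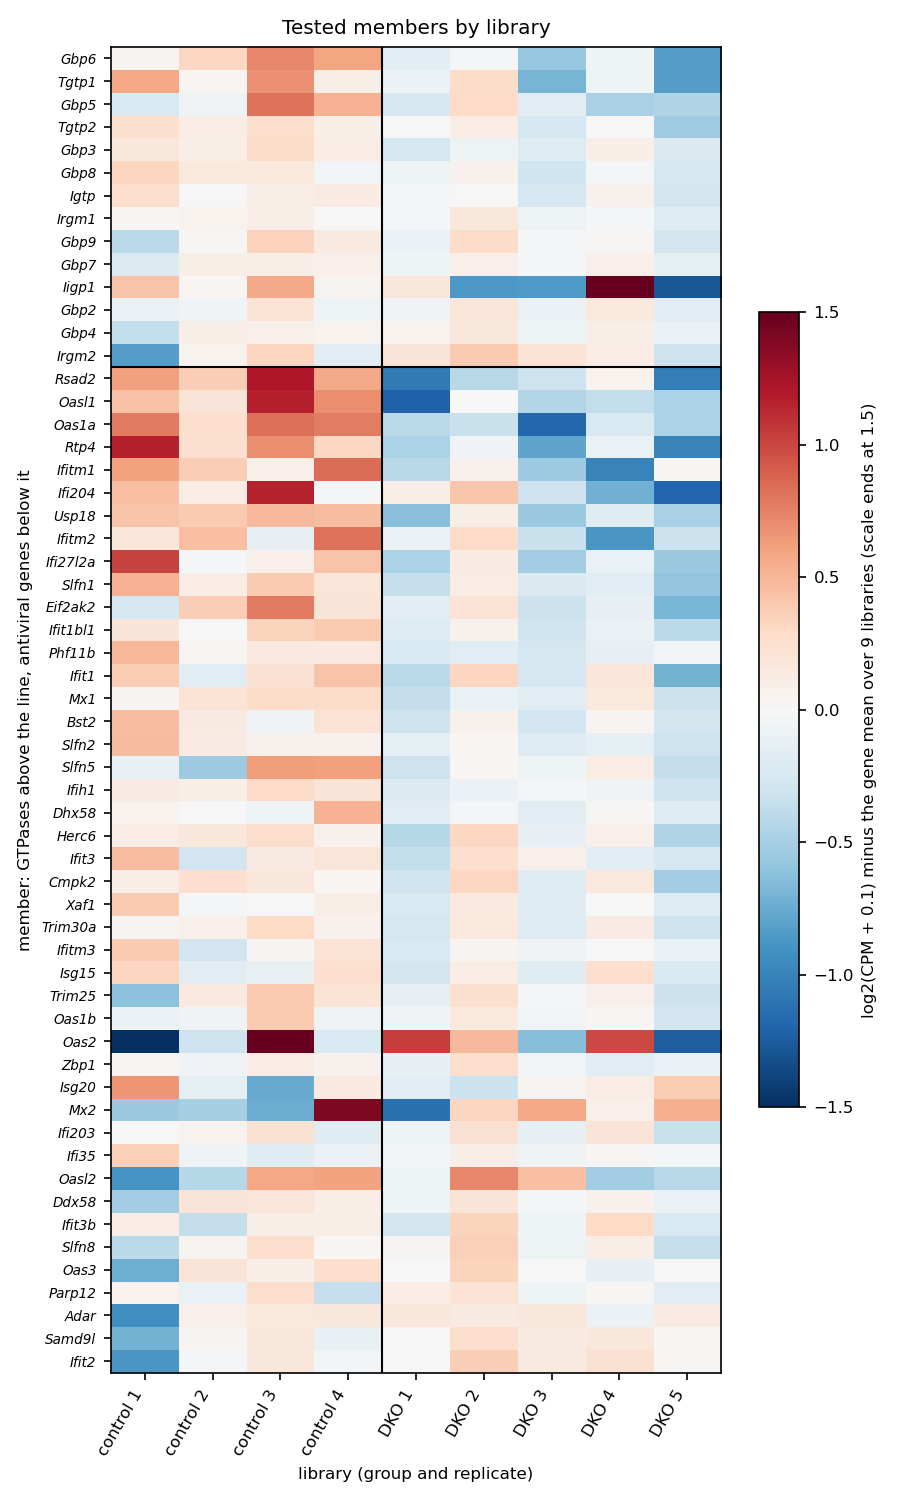
Each row is a tested member and each column a library. Colour gives log2(CPM + 0.1) minus the gene's mean over the 9 libraries, with the scale ending at 1.5, and GTPases are above the horizontal line. DKO replicate 2 is the highest DKO library for 42 of 58 members and replicate 5 the lowest for 32.

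Fold changes rose with gene length in the fit on all 9 libraries, and the trend was weaker without control replicate 1. The cause of the trend was not tested. Across the 58 tested members, Spearman's rho between annotated exon length and log2 fold change was 0.36, and across all 14903 genes with a length it was 0.23. Genes are not independent and share the 9 libraries, so these are descriptions. Without control replicate 1 the values were 0.12 and -0.03, and with the length trend of each library removed they were 0.18 and 0.01. Of the 29 shorter tested members 27 had a negative log2 fold change, with a median of -0.34, and of the 29 longer ones 19 did, with a median of -0.06. All genes under and over that length had medians of -0.07 and 0.05. Positive values of longer members such as Ifit2, Samd9l, Adar and Irgm2 came with a low value in control replicate 1, and without it their log2 fold changes were 0.10, 0.07, -0.04 and 0.05. With the length trend of each library removed, 6 members were called, Phf11b and Gbp6 in addition to the 4, where 3.84% of all genes were called, and the medians were -0.24 for antiviral genes and -0.15 for GTPases.

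**Figure D5:**
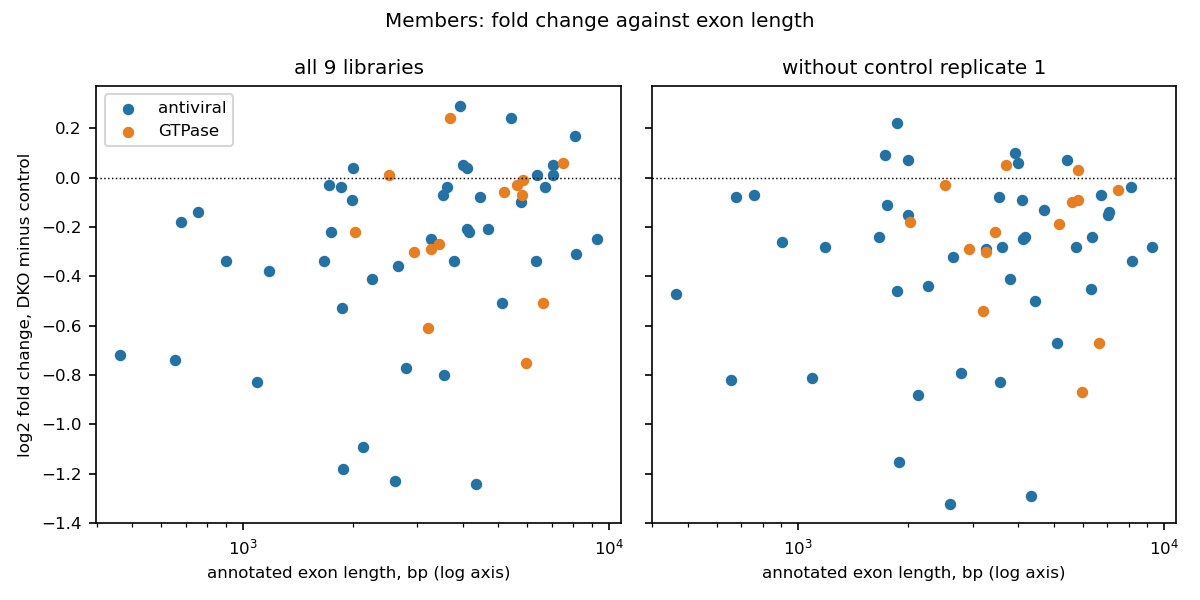
Log2 fold change (DKO minus control) against annotated exon length in base pairs on a log axis, for 44 antiviral genes (blue) and 14 GTPases (orange), with all 9 libraries (left) and without control replicate 1 (right). Spearman's rho is 0.36 on the left and 0.12 on the right, and most points are below 0 in both.

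Of the genes that carry the interferon signal 38 were examined, of which 31 were tested, and none passed the threshold in edgeR. At an unadjusted p under 0.05, 3 were lower (Irf7, Irf9 and Jak1; 9.68%, against 8.25% of all genes) and 2 higher (against 7.74% of all genes). DESeq2 called 1 of the 31, Irf7 (adjusted p 0.0153), where it called 7.10% of all genes. With limma-voom 2 were called, Jak1 and Ifnar1 (adjusted p 0.00236 and 0.0218), where it called 6.68% of all genes. Counts this small cannot be set apart from those shares. Stat2, of the ISRE-binding complex, was at 89.9 ± 18.7 and 98.0 ± 7.48 CPM in control and DKO (interval of the log2 fold change -0.17 to 0.42), and the groups overlapped. Irf9, the DNA-binding part of that complex, was at 157 ± 10.4 and 131 ± 14.4 CPM (-0.25, edgeR adjusted p 0.202). Irf7, the factor that amplifies type I interferon, was at 125 to 164 CPM in control, against 107 to 125 CPM in DKO. Its ranges did not overlap but met to 3 digits at control replicate 2 and DKO replicate 2. The log2 fold change of Irf7, -0.33, missed the threshold (edgeR adjusted p 0.0906), though DESeq2 called it. With the length trend removed Irf7 was called, as was Jak1 (edgeR adjusted p 0.0467 and 0.0251). The receptor genes Ifnar1, Ifnar2 and Ifngr1 had log2 fold changes of -0.25, 0.17 and 0.16, with intervals across 0, and Ifngr2 was at 0.666 and 0.605 CPM. Ifng, the gene of the type II interferon that these cells make, was at 48.4 ± 6.74 and 42.1 ± 3.08 CPM (interval -0.43 to 0.03).

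Of the rest of the list, Jak1, the kinase of both receptors, was at 4365 ± 915 and 3346 ± 294 CPM (-0.38, edgeR adjusted p 0.179). Control replicate 1, at 2997 CPM, lay below all DKO libraries, and without it the log2 fold change was -0.54 and called (edgeR adjusted p 0.00165). Ifnar1 was then called as well, at -0.38 (edgeR adjusted p 0.00702). The median log2 fold change of these genes was -0.01, with 16 negative and 15 positive. Socs3 and Ptpn6, which restrain cytokine signalling, were higher at an unadjusted p under 0.05 (log2 fold changes 0.33 and 0.18, edgeR adjusted p 0.234 and 0.245). Ifnb1, Ifna4 and Ifnl3 had 0 counts in every library, which allows up to 3 counts over a group. Tlr3, Tlr7 and Tlr9 held too few counts to be tested. Trex1 also had 0 counts, but 100% of its exon length is shared with Atrip on the same strand, so its count says nothing of its level.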

How the data were processed

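Per the labels' protocols, Takara SMART-Seq v4 and then Nextera Flex were used to build the 9 polyA RNA libraries. Each deposited file gives 1 library's raw whole-number counts per gene, as STAR writes them. Trim Galore 0.6.0, STAR 2.7.8a and mm10 are named in the submitters' processing notes. No annotation release was found among the labels. The strand columns were nearly equal (49.9 to 50.1% in the first), so unstranded counts were used. Such counting leaves out reads where genes overlap, and reads that map to several places are not counted, which lowers genes with near-identical copies. Library sizes and tests exclude reads assigned to no gene, which were unmapped (10.3 to 16.7%), multimapping (5.8 to 6.79%), outside features (4.01 to 5.2%) or ambiguous (4.97 to 5.31%). Symbols and coordinates came from GENCODE M21 (GRCm38), which held 55230 of 55471 identifiers.

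CPM, fold changes and tests were computed here. The test was that of edgeR 4.0.16 under R 4.3.3 (robust quasi-likelihood F-test, TMM factors 0.987 to 1.03, filterByExpr with a minimum count of 10 and minimum total of 15). Benjamini-Hochberg adjustment ran over all 14918 tested genes, with 0.05 as the threshold, and intervals are 95%. The tests were tested on simulated data. All 16 pairs of libraries within a group differed beyond counting noise (chi-square). Samples were grouped by the labels, with no covariate. Alternatives were DESeq2 1.42.0 (size factors, and Wald test), limma-voom 3.58.1, no and stricter filters (1 CPM in 4 libraries), summed strand columns, a block on replicate number and leaving out each library. A length correction (lowess span 0.3) and leaving out control replicates 1 and 3 together were added after seeing the data. By rule, the text names members with an unadjusted p under 0.05, the 3 most abundant antiviral genes and GTPases, members under 3 counts in a group, each gene of the Oas, Ifit, Ifitm, Slfn, Gbp and immunity-related GTPase families, Ifng, the interferon receptors, Stat2, Irf7, Irf9 and signalling genes past the threshold. Other genes, among them Jak1, Socs3 and Ptpn6, were added after their values were seen. An item of the signalling list is not reported here and is left out of its counts. The members and lists were chosen with earlier results of these data known. Shared sequence was counted as words of 50 bases, in Python 3.11.15. RefSeq held no promoter window for Gbp4, Gbp6, Gbp8, Gbp9, Iigp1, Dhx58, Mx1, Mx2, Oas1b, Oas2, Ifi204, Ifi27l2a, Zbp1, Rtp4 and Usp18 in the table used. The floor of 3 counts covers counting error only, since libraries without molecular identifiers hold PCR copies.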

Additional observations from a re-analysis of the deposited data

Results flagged for a closer look

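Among 118 groups of libraries (members in control or DKO), 15 (12.7%) had 1 library far from the others by Dixon's test, where chance gives about 1 in 20. The members share libraries, so these are not independent.

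Control replicate 3 was high for Oas1b (20.8 CPM, others 14.9 to 15.2), Ifi44 (3.25, others 0.0825 to 0.298), Trim30a (142, others 119 to 122) and Gbp2 (126, others 102 to 105 CPM). Control replicate 1 was low for Adar (65.3 CPM, others 130.1 to 139), Gbp4 (178, others 238 to 244) and Gbp7 (279, others 338 to 342), and high for Slfn2 (1191, others 893 to 931 CPM). Control replicate 2 was low for Oas1a (8.28 CPM, others 11.9 to 12.4) and Ifit3b (4.61, others 6.28 to 6.39). Control replicate 4 was high for Mx2 (0.932 CPM, others 0.133 to 0.175). In DKO, replicate 2 was high for Oas3 (86.7 CPM, others 63.2 to 68.6) and Zbp1 (98.6, others 72.8 to 79.2). DKO replicate 4 was high for Iigp1 (6.68 CPM, others 0.719 to 2.15) and low for Adar (116, others 135 to 139 CPM).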

How the results depend on the processing

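No called value changed sign under the 18 alternatives, though values that were not called could (Adar, 0.17, was -0.04 without control replicate 1). The median of the antiviral genes (-0.22) ran from -0.30 to -0.18 and that of the GTPases (-0.14) from -0.28 (without DKO replicate 4) to -0.10. The 4 called members became 14 with the DESeq2 Wald test, 13 with limma-voom, 2 with control replicates 1 and 3 both left out, and 1 to 8 when each library was left out in turn. For antiviral genes (4 called) these were 12, 11, 2 and 1 to 7. For GTPases (0 called by edgeR, 7 at an unadjusted p under 0.05) the count was 2 with DESeq2, 2 with limma-voom, 1 with the length trend removed and 0 to 1 when a library was left out. For signalling genes (0 called by edgeR, 5 at an unadjusted p under 0.05) it was 1 with DESeq2, 2 with limma-voom, 2 with the length trend removed, 2 with both control libraries left out, and 0 to 2 when 1 was left out. Over all genes the 422 calls became 1059 with DESeq2, 996 with limma-voom, 572 with the length trend removed, 482 with both control libraries left out and 179 to 749 when a library was left out. The cause of these moves was not tested. Over 52 named genes and 18 settings, 877 values kept their side of the threshold, 32 passed it, 21 lost it and 6 had no adjusted p.

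With the replicate block, on replicates 1 to 4, 63 of all genes, 0 members, 0 antiviral genes and 0 signalling genes were called. With each group's mean removed, same-numbered libraries correlated at -0.047, -0.009, 0.012 and -0.117, and pairs with unlike numbers at -0.087 to 0.155. So few pairs cannot show whether libraries with the same number share a donor, host or batch, which the labels do not state. Of 58 tested members 12 had intervals more than 1 log2 unit wide. Oas2, Mx2, Oasl2, Ifitm2 and Ifi204, among these, held few counts, but their libraries also differed, and the parts of depth and spread were not told apart.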
